A study of Caenorhabditis elegans with 3 samples.

Results

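C-type lectin genes, named clec in Caenorhabditis elegans, were examined for peaks of UNC-55, the worm's COUP-TF nuclear receptor. Members were taken by symbol from the Ensembl annotation of the WBcel235 assembly, as every protein-coding gene named clec followed by a number. The rule gave 240 genes of 19973 nuclear protein-coding genes. They carry 237 distinct symbols, since 3 symbols are each shared by a pair of genes. All values come from chromatin immunoprecipitation followed by sequencing (ChIP-seq) of whole L2 larvae, mixed in sex, in 3 biological replicates of 1 group. The strain was NC1639, which carries the integrated array wdIs49, with UNC-55a fused to GFP under the ttr-39 promoter and with dpy-20(+). The ttr-39 promoter drives expression in D-type GABA motor neurons, so few cells of the animal are meant to make the tagged protein, while the chromatin came from all cells. The labels name GFP in the strain, eGFP in the descriptions and a GFP-FLAG tag in a note on replicate 3. Fragments of 150 to 350 bp are stated for replicates 1 and 2 and microtip sonication for replicate 3, and the worms came from the CGC for the former and from the Snyder laboratory for the latter. Control reads and worms of another genotype were not analysed here, so no control value stands beside the counts.

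C-type lectins share a disulphide-braced fold that in many animals binds sugars with the help of calcium. In C. elegans the family has expanded into one of the larger gene families. Many members encode secreted proteins, and members expressed in the intestine respond to bacteria and serve as read-outs of the p38 MAP kinase immune pathway. At least 1 member, clec-38, acts in neurons, where it restrains axon outgrowth driven by the netrin receptor UNC-40. RefSeq product names call 207 of the 240 proteins C-type lectins, 8 VWFA domain proteins and 4 CUB domain proteins, and 21 carry none of these names.

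Peaks were rare at clec genes. Only 9 of 240 genes (3.75%) had a summit of the authors' optimal list in the promoter window, which runs from 2000 bp upstream to 500 bp downstream of a transcript start. Over all protein-coding genes the share was 25.5% (5094 of 19973). The optimal list holds the 5993 peaks that passed the authors' threshold on the irreproducible discovery rate. Taking the 5993 peaks of highest signal from each replicate gave 11, 10 and 10 clec genes in replicates 1, 2 and 3. The mean was 10.3 ± 0.577 genes (SD, n = 3), or 4.31% ± 0.241 of the family. The same lists reached 25.7%, 26.1% and 25.8% of all genes in replicates 1, 2 and 3. The clec share was thus the lower one in each replicate. The SD is over the same 240 genes scored in 3 replicates. It measures how stable the number of genes was, not whether the same genes were called. Nor does it measure the uncertainty of the gap to all genes. The gap was given no p-value, since the family was chosen with earlier results of these data known and genes are not replicates.

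**Figure D1:**
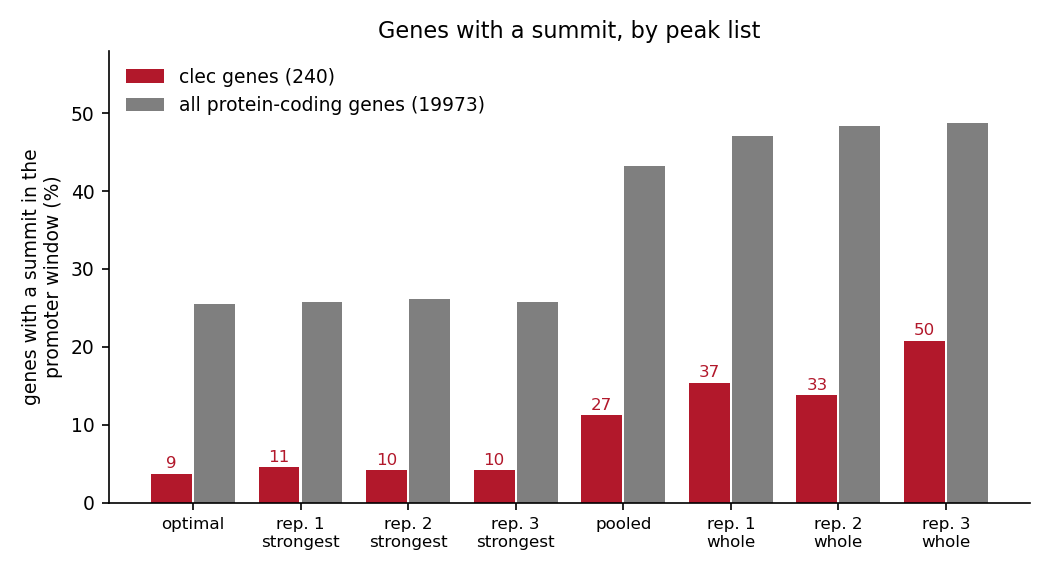
Share of genes (%) with a summit in the promoter window, for 240 clec genes (red, with the number of genes) and all 19973 protein-coding genes (grey), in the optimal list, the 5993 strongest peaks of each replicate, and the whole pooled and replicate lists. The clec share lies below the share of all genes in every list, at 3.75% against 25.5% in the optimal list.

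Most of these few summits were shared with a neighbour. Each of the 9 genes had 1 optimal summit in its window, and all 9 summits lay upstream of the nearest clec start. For 7 of the 9, the summit also fell in the window of a protein-coding gene outside the family. For 4 of these 7, at clec-87, clec-53, clec-264 and clec-104, the neighbour's start was the nearer one. Only clec-91 and clec-126 had a summit in no other coding gene's window. For comparison, of all 4134 optimal summits in a coding gene's window, 1511 (36.6%) were in windows of 2 or more genes. By gene, 2202 of the 5094 genes with an optimal summit (43.2%) had 1 in the window of no other gene. Of the same 5094 genes, 3552 (69.7%) were the nearest gene to 1. Among clec genes these gene counts were 2 and 5 of 9. The number of clec summits is small, and the differences were not tested.

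At clec-126 the summit fell inside a tRNA gene. The clec-126 peak (signal 96.3, II, 3519149 to 3519484) had its summit 177 bp upstream of the clec start and within WBGene00023161, a gene for tRNA-Lys on the opposite strand (3519250 to 3519322). The tRNA gene ends 172 bp before the clec-126 start, so the summit, at 3519317, lies only just inside its edge. The nearest start of a coding gene outside the family, W09G10.9, was 2483 bp from the summit. Of all 5993 optimal summits, 77 (1.28%) fell inside a tRNA gene. The stretch is shown because it holds the summit, the tRNA gene and the clec start together. It is chrII:3519240-3519503 of WBcel235 (RefSeq), plus strand, which is the strand of clec-126, with the 73 bases of the tRNA gene in capitals.
clec-126: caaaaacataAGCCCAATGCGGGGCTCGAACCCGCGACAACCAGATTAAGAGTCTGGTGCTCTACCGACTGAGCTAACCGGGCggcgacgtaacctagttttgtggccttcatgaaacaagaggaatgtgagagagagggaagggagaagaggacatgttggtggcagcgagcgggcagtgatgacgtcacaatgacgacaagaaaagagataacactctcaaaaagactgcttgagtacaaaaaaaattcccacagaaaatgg

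Further summits are shown to let the letters under the peaks be compared. Those of clec-87, clec-91, clec-53 and clec-104 are not printed but are included in the counts that follow. Each stretch is 101 bases centred on the summit, from RefSeq WBcel235, on the strand of its clec gene. Capitals mark AGGTCA, the core read by many nuclear receptors, or TGATAA, the core read by the intestinal GATA factors. A stretch without capitals holds neither on either strand. The intervals are chrII:4672807-4672907 for clec-140, chrII:401296-401396 for clec-10, chrIV:17277453-17277553 for clec-196, all on the plus strand, and chrV:20852164-20852264 for clec-264, on the minus strand.
clec-140: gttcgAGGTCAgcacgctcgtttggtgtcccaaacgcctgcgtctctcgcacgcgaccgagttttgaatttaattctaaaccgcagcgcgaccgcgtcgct
clec-10: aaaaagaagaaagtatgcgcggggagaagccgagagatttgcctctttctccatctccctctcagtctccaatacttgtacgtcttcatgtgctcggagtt
clec-196: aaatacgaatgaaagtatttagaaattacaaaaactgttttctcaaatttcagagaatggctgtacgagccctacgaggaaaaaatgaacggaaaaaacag
clec-264: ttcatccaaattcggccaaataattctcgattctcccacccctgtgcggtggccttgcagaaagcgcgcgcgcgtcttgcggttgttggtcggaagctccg

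AGGTCA was present at 1 of the 9 summits, that of clec-140, both within 50 bp and within 100 bp. Among all optimal summits, 82 of 5993 (1.37%) held it within 50 bp and 193 (3.22%) within 100 bp. TGATAA was within 100 bp of none of the 9, against 520 of 5993 (8.68%). The 101 bases at the 9 summits had a median GC content of 49.5%, from 32.7% at clec-196 to 57.4% at clec-140 and clec-264, against a median of 43.6% over all optimal summits.

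The 4 strongest clec peaks lay upstream of clec-87, clec-91, clec-53 and clec-264. The clec-87 peak had a signal of 219 and ranked 1008 in the optimal list and 1284, 529 and 2064 in replicates 1, 2 and 3 (WBGene00007709, chromosome I, 10185673 to 10185886, intergenic). Its summit was 268 bp upstream of clec-87 and 67 bp upstream of rsa-1, which runs the other way and encodes a phosphatase subunit needed for spindle assembly. The clec-53 peak had a signal of 176 and ranks of 1401, 1757 and 2304 in the replicates (WBGene00020191, chromosome I, 3873869 to 3874080). It lay 579 bp upstream of clec-53, in an intron of uba-5, the activating enzyme of the ubiquitin-like protein UFM1, and 284 bp downstream of a uba-5 start. Both peaks were thus nearer to the neighbour than to the lectin gene.

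The clec-91 peak was the one peak of the family with no other coding gene's window and no annotated non-coding gene at its summit. It had a signal of 208, a rank of 1123 in the optimal list and ranks of 1162, 1047 and 2339 in replicates 1, 2 and 3 (WBGene00014117, chromosome I, 9128800 to 9129031, intergenic). The summit was 1819 bp upstream of the clec-91 start, farther than at any other of the 9 genes. The nearest start outside the family was 3618 bp away, upstream of mel-26, which encodes an adaptor of a cullin ubiquitin ligase. The nearest annotated non-coding gene was 6227 bp away.

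The clec-264 peak (WBGene00009291, chromosome V, 20852121 to 20852279, intergenic) had a signal of 135 and ranks of 2843, 2561 and 1800. It lay 1513 bp upstream of clec-264 but 317 bp upstream of ndua-1, a gene for a subunit of respiratory complex I that sits between the summit and clec-264 on the same strand. It was also 1857 bp upstream of F31D4.5, on the opposite strand. The clec-104 peak (WBGene00012480, chromosome I, 12858406 to 12858573, intergenic) had a signal of 121 and lay 980 bp upstream of clec-104 and 232 bp upstream of ciao-1, which acts in cytosolic iron-sulphur cluster assembly. It ranked 2640 and 2212 in replicates 1 and 2 but 8093 in replicate 3, outside that replicate's 5993 strongest. These 2 genes complete the 4 whose summit was nearer to a neighbour.

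At clec-10, clec-140 and clec-196 the clec start was the nearer one although the summit was shared. The clec-10 peak (WBGene00015403, chromosome II, 401219 to 401478, intergenic, signal 133) was 1332 bp upstream of clec-10 and 1925 bp upstream of C03H5.6. It ranked 1781 and 3323 in replicates 2 and 3. In replicate 1 no peak covered at least 50% of its length, but a narrower peak of 84 bp, ranked 2750, lay inside it with its summit 2 bp away. The clec-140 peak (WBGene00020220, chromosome II, 4672800 to 4672905, intergenic, signal 115) ranked 2238, 3653 and 3175 and lay 203 bp upstream of clec-140. The start of hmg-11, a gene for a high mobility group chromatin protein on the same strand, is 25 bp beyond the clec-140 start, so the summit cannot be given to either gene by position, and its place among the 5 summits nearest to a clec start rests on these 25 bp. The window of T05A7.6, on the opposite strand, held it too, 1065 bp upstream of that gene's start.

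The clec-196 peak was the weakest of the 9, with a signal of 54.3 against 45.8 for the weakest peak of the optimal list (WBGene00009156, chromosome IV, 17277335 to 17277670). It ranked 5148 and 4250 in replicates 1 and 2, and 6304 in replicate 3, outside the 5993 strongest. It lay in an intron of clec-196, 34 bp upstream of the last of its 3 annotated starts and 547 bp downstream of the first. The window of hsp-1, the constitutive Hsc70 chaperone gene on the same strand, held it too, 1456 bp upstream of the hsp-1 start. At clec-126 the ranks were 3640, 3211 and 3113. The 9 signals ranged from 54.3 to 219 with a median of 133, and optimal peaks in the window of any coding gene had a median of 124.

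**Figure D2:**
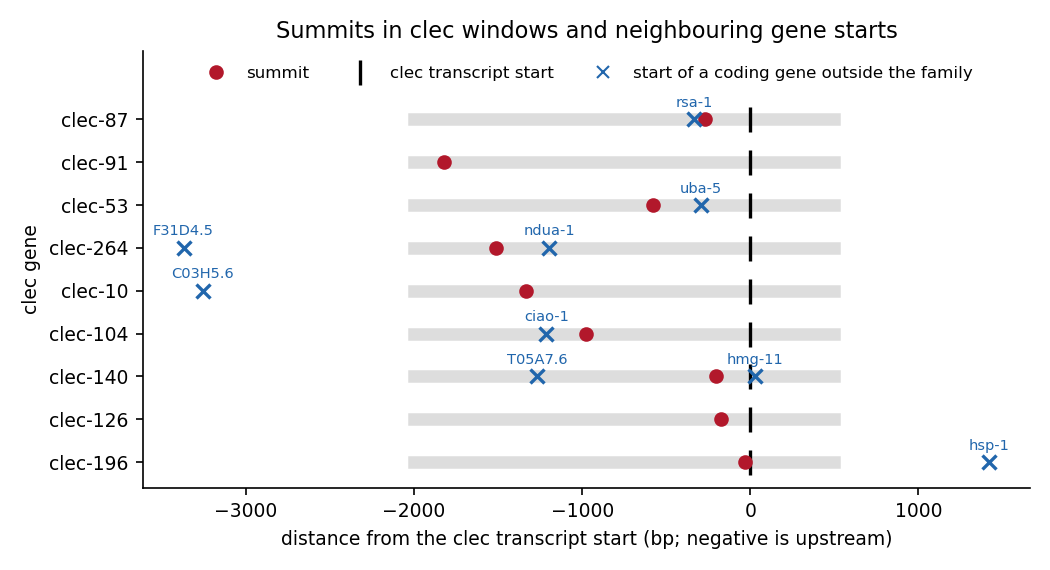
Position of each optimal summit (red) relative to the nearest transcript start of its clec gene (black bar, 0 bp), in bp, with the promoter window in grey. Blue crosses are starts of coding genes outside the family whose windows hold the same summit. Only clec-91 and clec-126 have no cross, and the clec-126 summit lies in a tRNA gene that is not drawn.

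**Figure D3:**
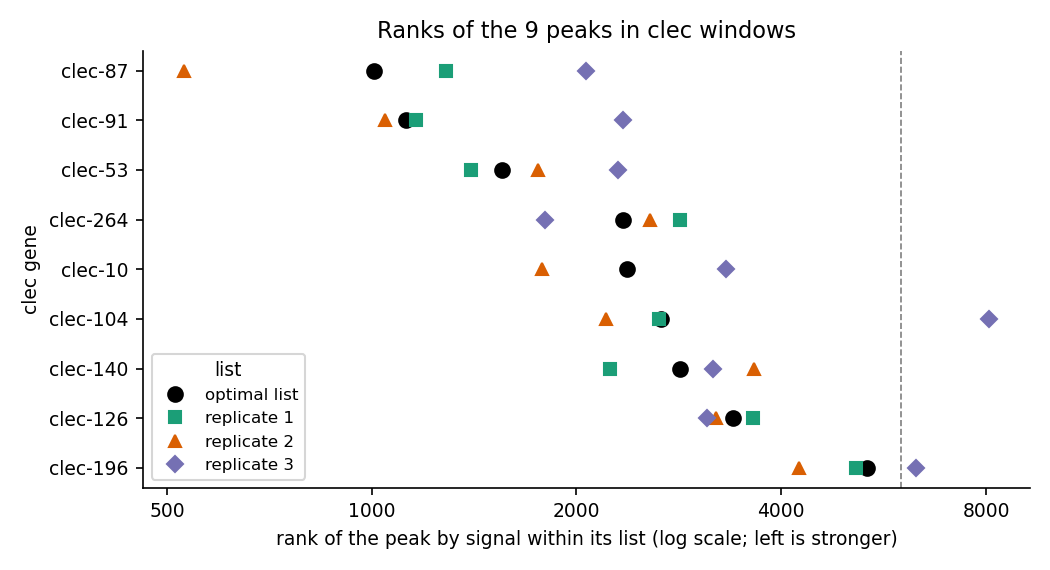
Rank of each of the 9 peaks by signal (log scale) in the optimal list and in each replicate's whole list, with the dashed line at 5993. All plotted ranks but those of clec-104 and clec-196 in replicate 3 lie left of the line. The clec-10 peak has no point for replicate 1, where no peak covered 50% of its length.

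Replicates shared part of this small set. In their own 5993 strongest peaks, 14 clec genes had a summit in at least 1 replicate and 7 in all 3. These 7 were all among the 9 genes of the optimal list. No matching overlap over all genes stands beside these counts, so they are not read as particular to the family. Summits in no window outside the family were found for clec-91 and clec-126 in every replicate, for clec-93 in replicate 1, and for clec-10 and clec-146 in replicate 3. The 5 genes reached by a replicate but not by the optimal list were clec-57, clec-93, clec-103, clec-113 and clec-146. At clec-103 (chromosome I) the best summits ranked 6505, 5326 and 5542 in the 3 replicates, and its summit in the pooled list ranked 6229 of 30000. No clec gene without an optimal summit was among the strongest peaks of all 3 replicates.

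The whole lists, which hold weaker calls, also reached few clec genes, and their overlap between replicates was lower than over all genes. By its label the pooled list holds peaks and background, as input to the step that made the optimal list. A summit found only there is thus not a peak that passed the authors' threshold. The whole pooled list, of 30000 peaks, held a summit for 27 clec genes (11.2%) against 43.2% of all genes. The whole replicate lists held 37, 33 and 50 clec genes, a mean of 40 ± 8.89 (SD, n = 3), where all genes reached 47.1%, 48.3% and 48.7%. Replicate 3 had the most clec genes although its list was the shortest, 25262 peaks against 30000 in each of the others. Of the 73 clec genes reached by any whole replicate list, 17 (23.3%) were reached by all 3 and 43 (58.9%) by 1 only, 25 of them by replicate 3. Over all genes these shares were 55.2% and 27.1%. Such an overlap also depends on how many genes each list reaches, which for clec genes was 15.4%, 13.8% and 20.8%. The difference in overlap is thus not a separate measure of agreement, and it was not tested. The ranks of those 25 in replicate 3 ran from 6543 to 25027, with a median of 16285. No summit of any of the 5 lists lay in the window of 167 clec genes (69.6%), against 36.4% of all genes. The 18 clec genes with a pooled summit but no optimal one had pooled signals from 8.37 to 43.3, with a median of 14.6. The whole pooled list had a median of 16.5 and a lowest signal of 7.94. For 6 of the 18, the summit was also in the window of a gene outside the family.

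Members known from earlier work had no optimal summit in the promoter window. The genes clec-4, clec-67 and clec-85 are read-outs of the p38 immune pathway, clec-60 responds to infection, clec-39 has been linked to resistance to Serratia, and clec-38 is the neuronal member described above. None of these 6 had a summit in the window in the optimal or pooled list. Of the whole family 3.75% and 11.2% did, and of all genes 25.5% and 43.2%. At the family's shares, none of 6 does not set these members apart from other clec genes. Their nearest optimal summits were 22766 bp from clec-4, 16974 bp from clec-38, 13324 bp from clec-39, 21054 bp from clec-60, 46735 bp from clec-67 and 4424 bp from clec-85. Only the clec-85 distance was below the median of 6785 bp over all genes. The 1 summit found in any list was at clec-85 in replicate 2, ranked 23522 of 30000. With the depth unknown, a gene without a summit had no called peak here, which is not the same as no binding.

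Some summits lay just beyond the window. The clec-113 summit on chromosome I (signal 97.3, ranks 4021, 3224 and 3278) was 2004 bp upstream, where the farthest summit inside the window was that of clec-91 at 1819 bp. In replicate 1 a summit at -1997 bp from the clec-113 start, of rank 4021, fell inside. The clec-216 summit (chromosome V, signal 125) was 2421 bp upstream, and those of clec-240, clec-93 and clec-146 were 2746, 2886 and 2989 bp upstream, with signals of 57, 51.7 and 130.2. Of these, the summits at clec-113, clec-216 and clec-146 were in the windows of other genes. The clec-223 summit lay downstream of the window, 1470 bp past the start and in a coding exon of clec-223 itself (WBGene00007282, chromosome V, 11274525 to 11274725). It had a signal of 193, ranks of 1632, 1223 and 915, and was in no gene's window. It and the clec-196 summit were the only optimal summits inside clec gene bodies, so 2 of 240 genes (0.833%) had 1 there, against 6.81% of all genes.

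Summits were farther from clec genes than from genes at large. The median distance from a clec start to the nearest optimal summit was 16440 bp (quartiles 8908 and 33665 bp), against 6785 bp over all genes (quartiles 1532 and 17496 bp). Within 10000 bp of a summit were 28.8% of clec genes and 60% of all genes. The farthest was clec-243 on chromosome V, 241747 bp from a summit.

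**Figure D4:**
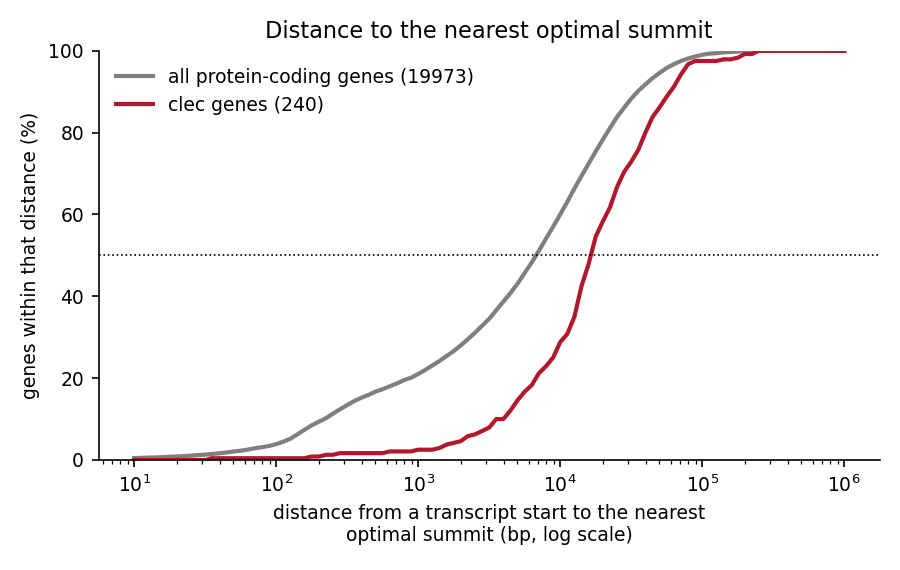
Cumulative share of genes (%) by distance from a transcript start to the nearest optimal summit (bp, log scale), for 240 clec genes (red) and all 19973 protein-coding genes (grey). The dotted line at 50% is crossed at 16440 bp by clec genes and at 6785 bp by all genes.

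The counts were also taken by chromosome. Chromosome V held 86 clec genes, of which 1 had an optimal summit (1.16%), where 15.7% of all genes on V did. The shares were 1 of 53 against 24.2% on IV, 3 of 48 against 23.9% on II, and 4 of 36 against 35.8% on I. None of 14 on III and none of 3 on X had 1, against 39.2% and 22.9% of all genes there. The clec share was below that of all genes on each chromosome. With each chromosome cut into 3 equal lengths, outside the middle one lay 84.2% of clec genes and 62.2% of all genes. There 8 of 202 clec genes (3.96%) and 24% of all genes had an optimal summit, and in the middle length 1 of 38 (2.63%) and 28%.

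**Figure D5:**
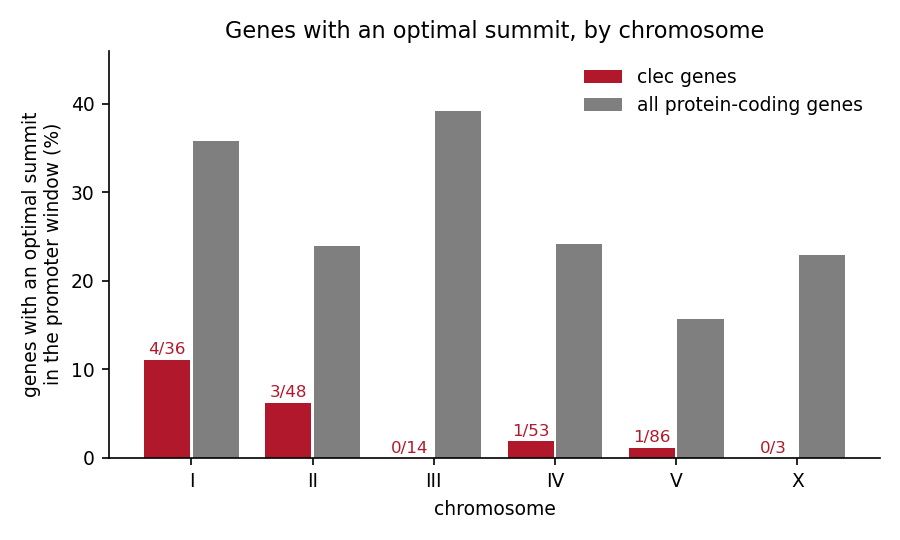
Share of genes (%) with an optimal summit in the promoter window on each chromosome, for clec genes (red, with counts) and all protein-coding genes (grey). The clec share is below the share of all genes on all 6 chromosomes, and highest on I, at 11.1%.

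Clec genes often sit side by side, and summits were fewest there. A total of 125 clec genes (52.1%) sat directly next to another clec gene, in 41 runs of up to 13 genes. The longest run, on chromosome V from clec-40 to clec-33 (16839121 to 16869840), had no optimal summit in any window. Of the 125 genes in runs 1 had a summit (0.8%), clec-126, which neighbours clec-125, and of the 115 single genes 8 had 1 (6.96%). Among the 299 coding genes outside the family that flank a clec gene or run, 36 (12%) had an optimal summit. That share lay between the 3.75% of clec genes and the 25.5% of all genes. These differences were not tested.

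Sequence repeats and base composition were measured beside the counts. The median clec window was 98.5% unique in 31-base words across the nuclear genome, and the median window of all genes 99.7%. Among genes whose window was at least 95% unique, 8 of 164 clec genes (4.88%) and 28.5% of all genes had an optimal summit. The 95% cut was chosen after seeing the data, and an effect of repeats on the counts was not tested. The median GC content of the windows was 36.9% for clec genes and 35.3% for all genes. Among windows of highest GC content, from 36.7% upwards, 7 of 127 clec genes (5.51%) and 32.6% of all genes had a summit.

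The letters TGATAA were common in clec promoters. Searched on both strands from 250 bp before to 50 bp after the most upstream start, they occurred at 129 of 240 clec genes (53.8%) and 6045 of 19973 genes (30.3%). AGGTCA occurred at 18 clec genes (7.5%) and 8.29% of all genes. A match of letters is a description and not a bound site. The larvae were not sorted, so the lists do not tell which tissue a peak comes from.

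Other immune genes were set beside the family, with regulators first and effectors after them. The regulators were picked by name, whereas the other lists were taken by symbol pattern, so their shares are not like for like. Differences between the lists were not tested. Over all genes the share with an optimal summit was 25.5%, and the shares in the strongest peaks of replicates 1, 2 and 3 were 25.7%, 26.1% and 25.8%. Of the immune regulators, 9 of 19 had an optimal summit (47.4%), and 8, 9 and 7 had 1 in the strongest peaks of replicates 1, 2 and 3. The strongest were at hif-1, the hypoxia-inducible transcription factor gene (signal 393, 82 bp upstream), egl-9, whose prolyl hydroxylase marks HIF-1 for destruction (signal 371, 1738 bp upstream), and zip-2, a bZIP factor gene of the pathogen response (signal 347, 231 bp upstream). The zip-2 summit was also in the window of ceeh-1. The hif-1 peak had no match of 50% of its length in replicate 3. Of 16 lysozyme genes 1 had a summit (6.25%), ilys-4 (signal 86.2). Of 31 saposin-like genes 2 did (6.45%), spp-28 (signal 311, also in the window of dnj-16) and spp-25 (signal 127). Of 8 infection response genes 1 did (12.5%), irg-2 (signal 82.1, also in the windows of C49G7.10 and phat-3), and none of 11 caenacin and 5 thaumatin-like genes did. The galectins, lectins of a different fold, had summits at 2 of 12 genes (16.7%), lec-1 (signal 139) and lec-4 (signal 133). The whole pooled list reached 43.2% of all genes and 11.2% of clec genes. It held a summit for 14 of 19 regulators, 12 of 31 saposin-like genes and 5 of 12 galectins. For the other lists it held 1 of 16 lysozyme, 2 of 8 infection response, 1 of 11 caenacin and none of 5 thaumatin-like genes. No lysozyme gene had a summit in the strongest peaks of replicate 3.

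Other expanded families had shares below the 25.5% of all genes. Optimal summits were found at 7 of 74 cytochrome P450 genes (9.46%), led by cyp-37A1 (signal 113), cyp-33C8 (signal 110.4) and cyp-36A1 (signal 99.7). F-box genes named fbxb had them at 5 of 104 (4.81%) and chemoreceptor genes of the srh and sri families at 5 of 281 (1.78%). The strongest peaks at these families, at fbxb-58 (signal 742), fbxb-85 (signal 406) and sri-5 (signal 370.2), exceeded the strongest clec signal of 219. The fbxb-85 summit was also in the window of hex-3 and the sri-5 summit in that of rsr-1, and the fbxb-58 summit was in no other gene's window. No test was made between the families.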

How the data were processed

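ChIP-seq peak lists in the narrowPeak format were used, in ce11 coordinates. Per the deposited notes, a relaxed list was called for each of 3 replicates and for the pooled replicates against 1 control, and the optimal list was made from these. Which caller and aligner made them is not given in the sources used here. Each peak's signal value is the authors' own, its relation to depth is not stated, and it was used only within a list. The −log10 q-value deposited by the authors was 4.12 for every optimal peak, so it ranked nothing. No read counts came with the lists, so sequencing depth is unknown and no detection limit was computed. The labels number the samples as biological replicates and say no more of their cultures.

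Genes came from Ensembl release 115 and sequence from RefSeq, both WBcel235, which is ce11. The summit was column 2 plus column 10 of the file. A peak's rank in a replicate is that of the strongest replicate peak covering at least 50% of the optimal peak. Counts used Python 3.11.15 and numpy 2.4.6, and the assignment was tested on simulated summits. Members, lists and tests were chosen with earlier results of these data known. Named genes are all 9 members with an optimal summit, those with an optimal summit within 1000 bp outside the window, any in the strongest peaks of all 3 replicates without an optimal summit (none), 6 members of earlier work and up to 3 genes of highest signal per other list. Genes named as farthest, in runs, or reached in a replicate alone were chosen after their values were seen.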

Additional observations from a re-analysis of the deposited data

How the results depend on the processing

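The count of 9 clec genes with an optimal summit fell to 5 when each summit was given to the nearest start alone and rose to 27 in the whole pooled list, where all genes rose from 5094 to 8628. Replicates 1, 2 and 3 were also set aside in turn, keeping optimal peaks covered to 50% by the strongest peaks of both other replicates. The count was then 7, 6 and 8. The optimal list itself still came from all 3 replicates, so this filter could only lower the count. It was 6 to 8 under the other alternatives, of which the choice of windows at least 95% unique was made after seeing the data. With starts limited to the most upstream of each gene, clec-196 was lost. The count of 2 genes with a summit in no window outside the family was 1 among the 2996 strongest optimal peaks and 19 in the pooled list. It was 1 when summits inside tRNA genes were left out, an alternative chosen after seeing the data. With the nearest start alone it must equal the 5 above, since that rule gives each summit to 1 gene and cannot see shared windows. Of these 5, clec-10, clec-140 and clec-196 still had their summit in another gene's window. With the filter on the other replicates, the count of genes with a summit in no window outside the family was 2, whichever replicate was set aside. The replicate mean of 10.3 was 6.67 when windows reached only 1000 bp up and 200 bp down from the start, 5.67 with the nearest start alone, 40 in the whole lists, and 10 to 10.5 without a replicate. The 1 summit with AGGTCA did not change under its alternatives. The clec share stayed below that of all genes under the 8 settings for which both were computed, from 2.08% against 17.8% to 11.2% against 43.2%. No paired analysis was possible because the series has 1 group. Depth is unknown, so a peak missing from a list may lie below what these libraries could detect.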
